A study of Mus musculus with 2 samples.

Results

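The genes described here encode the semaphorins, a family of axon guidance cues, and their receptors, the plexins and neuropilins. They were taken by symbol from the protein-coding genes of GENCODE release M21 on the mouse build GRCm38. All 31 were found, out of 21755 on the 20 chromosomes that the data cover: 20 semaphorins, 9 plexins and 2 neuropilins. For each gene the start site (TSS, the 5′ end of its gene model) and the gene body were set against a list of chromosome boundaries.

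Semaphorins are secreted or membrane-bound proteins that steer growing axons, mostly by repelling them. Plexins are the receptors that carry the signal into the cell. Neuropilins are co-receptors that bind the secreted class 3 semaphorins and pair with class A plexins. In the olfactory system, Sema3a with Nrp1 and Sema3f with Nrp2 are known for sorting the axons of sensory neurons before they reach their targets in the olfactory bulb.

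The boundaries came from in situ Hi-C, an assay that joins and counts DNA ends lying close together in fixed nuclei. Mature olfactory sensory neurons had been isolated by FACS. They came from the olfactory epithelium of adult animals, of mixed sex and unspecified strain. There was 1 group, conditional OMP-Cre; Ldb1-KO, with 2 biological replicates of 1000000 cells each, fixed in 1% formaldehyde. Ldb1 is a cofactor that bridges transcription factors, and Omp is a gene of mature olfactory neurons, so Cre acts in cells that have already matured. The labels do not say how many mice went into a library or how loss of Ldb1 was checked.

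The submitters called boundaries once, on the pooled contacts of both replicates. A boundary is a 5 kb bin that few contacts cross, and the stretch between neighbouring boundaries is called an interval here. The list held 7610 boundaries with a strength from 0.200 to 4.13 (median 0.538), which is the authors' own score. They classed the 4022 boundaries with a score of at least 0.5 as strong and the others as weak. No value below has a replicate error, the depth behind each boundary is unknown, and no knockout can be compared with a normal neuron. A boundary list holds no expression level, so neither the sorted cell type nor the use of any gene could be checked.

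The share of this gene group with a start site near a boundary was not distinguishable from that of similar genes, and its direction depended on which start sites were counted. A TSS lay in a boundary bin or within 10 kb of it for 7 of the 31 genes: Nrp1, Nrp2, Plxna1, Plxna4, Sema3a, Sema6a and Sema6d. That is 22.6% (exact 95% binomial interval 9.59 to 41.1%), against 14.3% of all protein-coding genes. Each gene was also set beside the 200 other protein-coding genes most like it in length and in the number of other TSSs within 100 kb. Of these comparison genes 15.7% had a TSS within 10 kb of a boundary, which corresponds to 4.88 of 31. The interval of the 31 genes covers that share, so an excess was not detectable with this number of genes. The interval covers counting error only and takes the genes as independent, which neighbours are not. When any annotated transcript start was counted in place of the TSS, the 7 members stood against 7.36 expected, and the ratio of seen to expected turned from 1.43 to 0.951.

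Counts by TSS were also above the expected number in the bin itself, with strong boundaries alone and within 25 kb, though each counting interval covered the expected share. The TSS lay in the bin itself for 3 genes (9.68%), against 3.86% of all protein-coding genes and 1.44 genes expected from the comparison genes. A strong boundary was within 10 kb for 5 genes (16.1%), against 9.3% of all and 2.83 expected. Within 25 kb there were 13 of 31 (41.9%, interval 24.5 to 60.9%), against 26.5% of all and 8.29 expected. Within 50 kb the counts were closer, at 15 genes and 14.04 expected. The median distance from TSS to boundary was 54.8 kb for the 31 genes and 56.6 kb for all protein-coding genes. The nearest boundary had a median strength of 0.837 for the 31 genes. That median was 0.659 for all protein-coding genes and 0.619 for the comparison genes, and the difference was not tested.

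**Figure D1:**
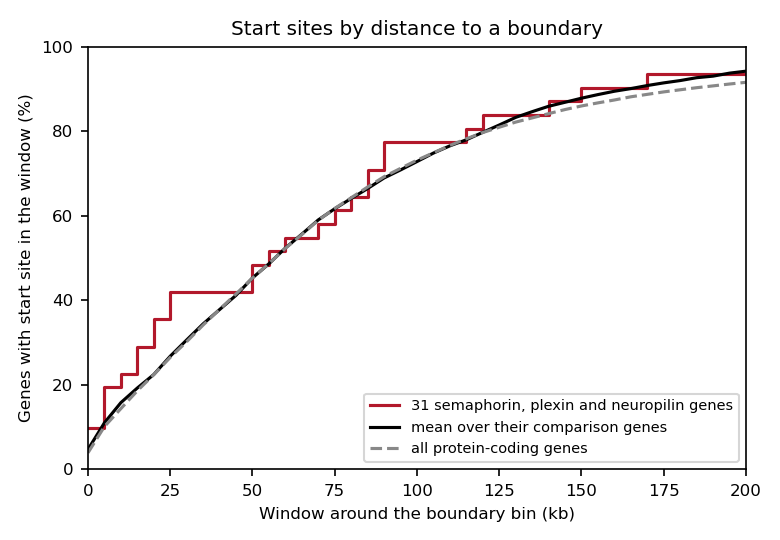
Share of genes (vertical axis, %) whose TSS lies within a given window of a boundary bin (horizontal axis, kb). The line of the 31 genes reaches 41.9% at 25 kb, above the 26.7% of their comparison genes, and the lines stand at 48.4 and 45.3% at 50 kb.

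Among the co-receptors, both neuropilin genes began at a strong boundary. Nrp1, the Sema3a co-receptor on chromosome 8, had its TSS inside the bin chr8:128355001-128360000 (strength 0.601), which overlaps an exon of Nrp1 and the microRNA gene Mir1903. None of its 200 comparison genes had a TSS nearer to a boundary in kb, since its distance was 0. Nrp2, the Sema3f co-receptor on chromosome 1, had its TSS 3.285 kb downstream of an intergenic bin, chr1:62695001-62700000 (strength 1.08). Of its comparison genes 10.5% lay nearer. Their comparison medians were 83.8 and 82.3 kb, so both co-receptor genes stood much closer than the typical gene of their size and surroundings.

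The promoters of both neuropilin genes are shown because the boundary lies at or next to them. They run from 250 bases before to 50 after the RefSeq start (RefSeq, build GRCm38.p6). On both strands 4 motifs were searched: the CTCF consensus, TAATTA (a homeodomain core of the kind Lhx2 binds), GGGCGG (a GC box) and TATAAA. Capitals mark every match, and all matches in these sequences are to GGGCGG, including overlapping ones.
Nrp1, chr8:128358823-128359122, plus strand: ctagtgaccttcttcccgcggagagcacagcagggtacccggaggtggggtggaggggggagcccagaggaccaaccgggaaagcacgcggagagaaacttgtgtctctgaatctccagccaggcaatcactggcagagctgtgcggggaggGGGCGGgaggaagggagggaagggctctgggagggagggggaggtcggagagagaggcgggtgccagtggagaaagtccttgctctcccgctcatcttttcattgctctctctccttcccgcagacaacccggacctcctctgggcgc
Nrp2, chr1:62703067-62703366, plus strand: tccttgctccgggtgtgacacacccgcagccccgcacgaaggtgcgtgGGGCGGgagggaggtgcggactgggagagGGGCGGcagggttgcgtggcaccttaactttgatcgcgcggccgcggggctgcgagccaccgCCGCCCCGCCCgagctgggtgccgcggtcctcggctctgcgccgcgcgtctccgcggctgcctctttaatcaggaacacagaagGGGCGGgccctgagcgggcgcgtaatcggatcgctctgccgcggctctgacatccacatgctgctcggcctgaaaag
The Nrp1 promoter was 64.0% G and C with 14 CpG dinucleotides and 1 GC box. The Nrp2 promoter was 70.7% G and C with 37 CpG dinucleotides and 5 GC boxes. Over all 32851 promoters of the table the medians were 52.7% and 7 CpG, and 35.7% held a GC box. The other motifs occurred in 0.557% (CTCF), 5.29% (TAATTA) and 13.6% (TATAAA) of all promoters. Matches describe letters, not binding.

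Class A plexins, the signalling partners of neuropilins, ran from a TSS inside a boundary bin to one 89.1 kb away. Plxna1 on chromosome 6 had its TSS inside a strong bin that overlaps an exon of Plxna1 (chr6:89360001-89365000, strength 0.837). Plxna4, also on chromosome 6, began 6.81 kb from the strongest boundary nearest to any of the 31 genes. That intergenic bin, chr6:32595001-32600000, had a strength of 2.38, above 99.1% of the list. Plxna2 on chromosome 1 lay 23.2 kb from a weak boundary (0.251) and 883 kb from the nearest strong one. Plxna3 on chromosome X lay 89.1 kb away, in a stretch with 13 other TSSs within 100 kb. The comparison genes of these 4 had medians of 65.6, 60.0, 68.6 and 49.5 kb in the order given, so 3 of the 4 were closer than their comparison median.

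Class B plexins, receptors of several class 4 semaphorins, had no TSS within 25 kb of a boundary. The distances were 49.6 kb for Plxnb1, 116 kb for Plxnb2 and 87.1 kb for Plxnb3. All 3 genes are short (15.4 to 25.2 kb) and sit among 6 to 8 other TSSs within 100 kb. Plxnb1 faced one of the strongest boundaries in the group, with a strength of 2.09, on the side of its 3′ end. Plxnd1, a receptor of Sema3e, and Plxnc1, the receptor of Sema7a, were just outside the 10 kb window at 15.0 and 15.2 kb. Their boundaries were strong (0.735 and 0.975), intergenic and upstream of the TSS.

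**Figure D2:**
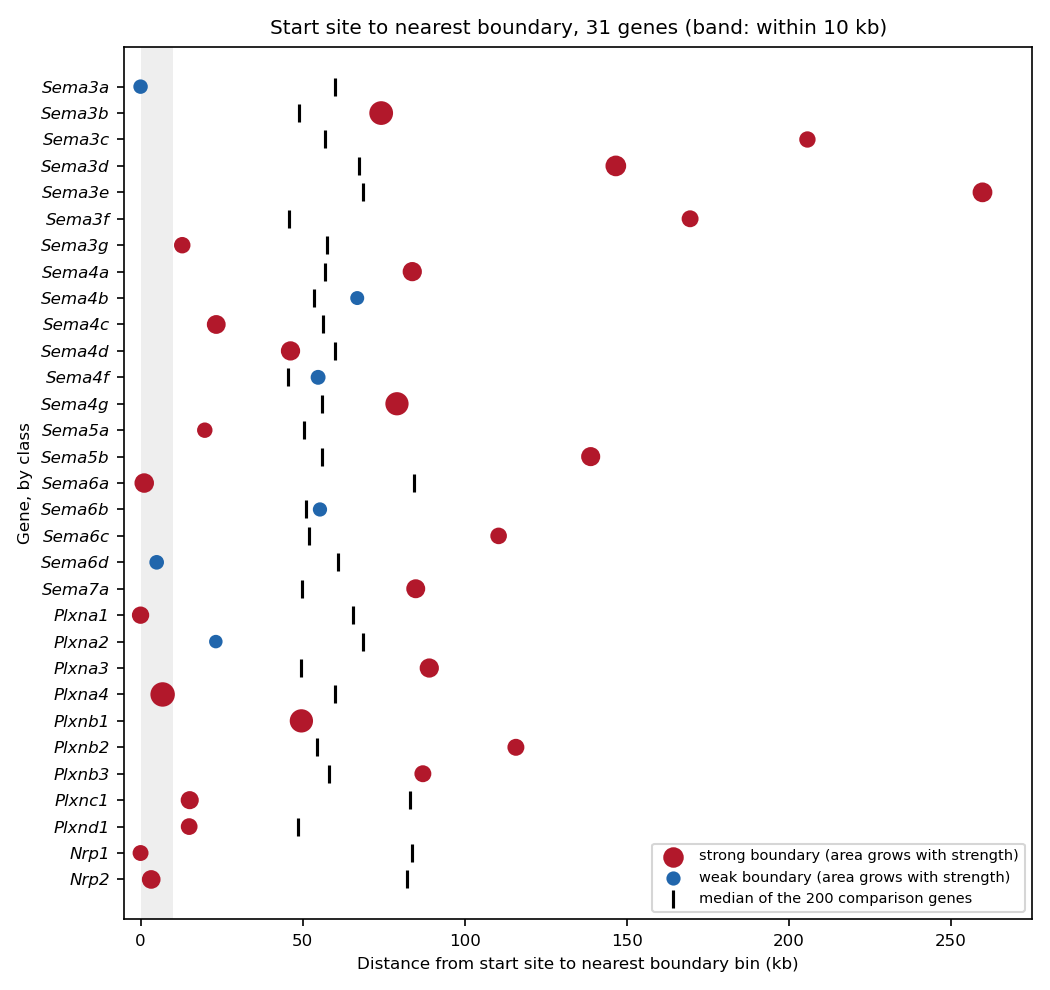
Distance from each TSS to its nearest boundary bin (horizontal axis, kb), 1 point per gene, red for strong and blue for weak boundaries, with area growing with strength. Black ticks are medians of the 200 comparison genes. Both neuropilins, Plxna1, Plxna4, Sema3a, Sema6a and Sema6d lie in the grey 10 kb band, and Sema3e is farthest at 259.7 kb.

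Secreted class 3 semaphorins held both the closest and the farthest start sites. Sema3a, the repellent read through Nrp1, had its annotated 5′ end inside a weak bin (chr5:13125001-13130000, strength 0.381). Sema3e (259.7 kb), Sema3c (206 kb) and Sema3f (170 kb) were the 3 genes farthest from any boundary. Of the comparison genes of these 3, between 94.5 and 97.0% lay nearer to one. Sema3d (147 kb) and Sema3b (74.2 kb) were also beyond their comparison medians of 67.3 and 49.0 kb. Sema3g was 12.9 kb from a strong boundary (0.690). The median of the 7 was 147 kb, the largest of the classes with more than 2 members.

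The start sites of the class 3 genes of chromosome 5 were separated from each other by boundaries, and those of chromosome 9 were not. Between the TSSs of Sema3d and Sema3a, 742 kb apart, lay 1 boundary, and it was strong (1.49). That boundary lay inside Sema3d, in an intron, and the bin that holds the Sema3a TSS was not counted. Between Sema3a and Sema3e, 899.9 kb apart, lay 2, the stronger with a strength of 0.978. The weaker (0.298) lay inside Sema3a, before the starts of its coding transcripts. Between Sema3e and Sema3c, 3549 kb apart, lay 5. None of these 4 TSSs thus shared an interval with another of them, and that of Sema3a lay in a bin. The gaps between them were all longer than the median interval around a protein-coding TSS, 270 kb. Sema3b and Sema3f on chromosome 9, with TSSs only 101 kb apart, had no boundary between them and shared 1 interval of 345 kb. Other gene pairs at like distances were not compared, so the contrast between the 2 chromosomes cannot be told apart from spacing. The interval of Sema3b and Sema3f held 15 further protein-coding TSSs, among them those of the G protein genes Gnai2 and Gnat1 and the hyaluronidase genes Hyal1, Hyal2 and Hyal3.

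None of the 6 class 4 semaphorins, membrane proteins that mostly act on class B plexins, began within 10 kb of a boundary, with 0.825 expected. Their distances ran from 23.3 kb for Sema4c to 83.8 kb for Sema4a. Sema4d, the ligand of Plxnb1, stood at 46.3 kb, Sema4f at 54.8 kb, Sema4b at 66.8 kb and Sema4g at 79.1 kb. These values straddle the comparison medians, which lay between 45.4 and 59.9 kb. The boundary nearest to Sema4g was among the strongest in the group (2.08).

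The other membrane semaphorins divided within their classes. In class 6, whose members bind class A plexins, Sema6a on chromosome 18 began 1.13 kb from a strong intergenic bin (1.25; chr18:47370001-47375000). Sema6d on chromosome 2 began 4.97 kb from a weak one (0.408; chr2:124080001-124085000), with the nearest strong boundary 1170 kb away. Sema6b and Sema6c lay 55.3 and 110 kb from a boundary. In class 5, Sema5a was 19.8 kb and Sema5b 139 kb away. Sema7a, which is anchored to the membrane by a lipid, was at 84.9 kb. Of the long members of these 2 classes, Sema5a, Sema6a and Sema6d were thus within 20 kb of a boundary and Sema5b was not. The short Sema6b and Sema6c were not either. In class 3 the long Sema3a began in a bin, but Sema3c, Sema3d and Sema3e began 147 to 259.7 kb away. A link with length was not tested.

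The boundary was on the upstream side in every case where the TSS was close but not in the bin. Of the 7 genes at a boundary, 3 had the TSS in the bin, 4 had the bin upstream and 0 had it downstream. Over the 3116 protein-coding genes at a boundary these shares were 26.9% in the bin, 40.7% upstream and 32.4% downstream. With 7 genes the difference from that split was not tested. For Nrp2, Plxna4, Sema6a and Sema6d the gene body therefore ran away from the boundary and into the next interval.

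All 7 genes at a boundary had no other protein-coding TSS within 100 kb. Of the 31 genes 11 were isolated in this sense, and 7 of these 11 were within 10 kb of a boundary. That is 63.6% (interval 30.8 to 89.1%), with 2.015 genes (18.3%) expected from their comparison genes. Of the 20 genes with a neighbouring TSS, 0 were (interval 0 to 16.8%), with 2.87 expected from their comparison genes. That is an expected share of 14.3%, which the interval covers. Isolation was not linked to boundaries in this way across the genome: 15.3% of 2712 isolated and 14.2% of 19043 other protein-coding genes were at a boundary. Among 1714 isolated genes outside the group that were at least as long as the shortest isolated one here (46.3 kb), the share was 16.1%. The 4 isolated genes not at a boundary were Plxnc1 (15.2 kb), Plxna2 (23.2 kb), Sema3d (147 kb) and Sema3e (259.7 kb). With a window of 25 kb the split was less sharp, at 9 of the 11 isolated genes and 4 of the 20 others. With isolation set at 50 kb, 7 of 16 isolated genes were within 10 kb of a boundary. The split by isolation was chosen after the values were seen and carries no test.

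Boundaries inside gene bodies were not seen in more of these genes than in similar ones, and 4 of the 5 that lay more than 10 kb from the 5′ end of the gene model were weak. A boundary overlapped the gene body of 7 of the 31 genes, against 16.2% of all protein-coding genes and 9.02 expected from the comparison genes, whose lengths were alike. At Nrp1 and Plxna1 the overlapping bin was the one at the start site. Counting only bins wholly inside the gene and more than 10 kb from the TSS, 5 genes held 1 boundary each (background 7.24%, 5.92 expected). Their strengths were 0.298 in Sema3a, 1.49 in Sema3d, 0.250 in Sema6a, 0.201 in Sema6d and 0.216 in Nrp2. Of these 5 only the one in Sema3d was strong, whereas 53.0% of the 794 such boundaries in the comparison genes were strong (median 0.532). With only 5 boundaries that difference was not tested. The one in Sema6d stood just above the lowest score of the list, stronger than 0.184% of it.

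Long genes without an internal boundary included Sema5a (452 kb) and Plxna4 (444 kb). Of their comparison genes 62.0 and 58.0% had at least 1. Sema3e (231 kb) and Plxna2 (199 kb) had none either, against 43.5 and 33.5%. Over all 14 members of 100 kb or more, 5 had an internal boundary and 5.47 were expected from genes of like length.

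In Sema3a and Sema6d the internal boundary sat just upstream of the start sites of most coding transcripts. The weak bin in Sema3a (chr5:13385001-13390000, intronic) lay 262 kb from the annotated 5′ end. The coding transcripts start 6.78 to 9.32 kb beyond it, and the transcripts that start at the 5′ end are annotated as non-coding. In Sema6d the weak intronic bin (chr2:124600001-124605000) lay 513 kb from the TSS and 5.30 to 5.601 kb before the starts of 6 coding transcripts. A further coding transcript starts at the upstream boundary and another 48.6 kb past the internal one. Both genes therefore had a weak boundary within 10 kb of the annotated 5′ end and another within 10 kb of most coding starts. Which of these starts the cells use is not known from these data. In all, 2 of the 5 genes with an internal boundary had a coding start of the same gene no more than 10 kb from it. The exact 95% interval of that share was 5.27 to 85.3%. Such a start was present in 17.4% of 714 comparison genes and 20.1% of all 1575 protein-coding genes with an internal boundary.

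The promoters next to these boundaries that the RefSeq table holds are shown for the coding start of Sema3a and the upstream start of Sema6d. Capitals again mark matches to any of the 4 motifs, here GGGCGG alone.
Sema3a, chr5:13396534-13396833, plus strand: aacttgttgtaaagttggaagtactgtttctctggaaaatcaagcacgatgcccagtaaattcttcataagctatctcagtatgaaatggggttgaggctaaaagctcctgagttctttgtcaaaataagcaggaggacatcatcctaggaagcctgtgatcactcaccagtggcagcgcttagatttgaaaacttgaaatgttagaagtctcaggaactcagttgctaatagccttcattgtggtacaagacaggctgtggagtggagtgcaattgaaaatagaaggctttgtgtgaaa
Sema6d, chr2:124089719-124090018, plus strand: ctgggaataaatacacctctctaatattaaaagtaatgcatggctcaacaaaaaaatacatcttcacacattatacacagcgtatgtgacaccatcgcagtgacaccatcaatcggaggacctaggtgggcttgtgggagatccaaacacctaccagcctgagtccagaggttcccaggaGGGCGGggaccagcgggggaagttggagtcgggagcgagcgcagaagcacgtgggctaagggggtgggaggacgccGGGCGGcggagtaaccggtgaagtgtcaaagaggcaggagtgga
The Sema3a promoter was 41.3% G and C with 2 CpG dinucleotides and no motif match, below the medians of all promoters. The Sema6d promoter was 54.3% G and C with 14 CpG and 2 GC boxes. Of the 7 genes at a boundary, Plxna1, Plxna4 and Sema6a had no entry, so the promoters described are those of the other 4, Nrp1, Nrp2, Sema3a and Sema6d. The table matched 26 of the 31 genes with 37 entries, whose medians were 63.7% G and C and 15 CpG.

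Several long members took up nearly a whole interval from boundary to boundary. Plxna4 filled 96.5% of its 460 kb interval: its TSS was 6.81 kb from the boundary of strength 2.38, and its 3′ end 9.27 kb from a weak one (0.447). Sema6a lay within 10 kb of a boundary at both ends too, and the bin near its 3′ end was the weak one inside the gene (0.250). These were the 2 genes with both ends within 10 kb, against 5.33% of all protein-coding genes and 0.91 expected. The 3′ end alone was within 10 kb in the same 2 genes, where the background was 13.2% and 4.40 were expected. Starts at a boundary (7) thus outnumbered ends at one (2) in this group.

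Among the 14 members of 100 kb or more, 7 filled at least 80% of the interval that holds their start: Sema3a (100%), Sema6a (99.1%), Sema6d (99.0%), Plxna4 (96.5%), Nrp2 (96.1%), Sema5a (85.2%) and Plxna2 (84.5%). Of their comparison genes 16.6% did, or 2.32 of 14. For Sema3a, Sema6a, Sema6d and Nrp2 the interval ended at the internal boundary, so the gene ran on past it. The lowest values were those of Sema3c (18.1% of 860 kb), Sema3d (30.2%), Sema5b (32.1%) and Sema3e (35.3% of 655 kb). A start near a boundary and a large fill go together by construction, and the 80% mark was set after the values were seen.

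**Figure D3:**
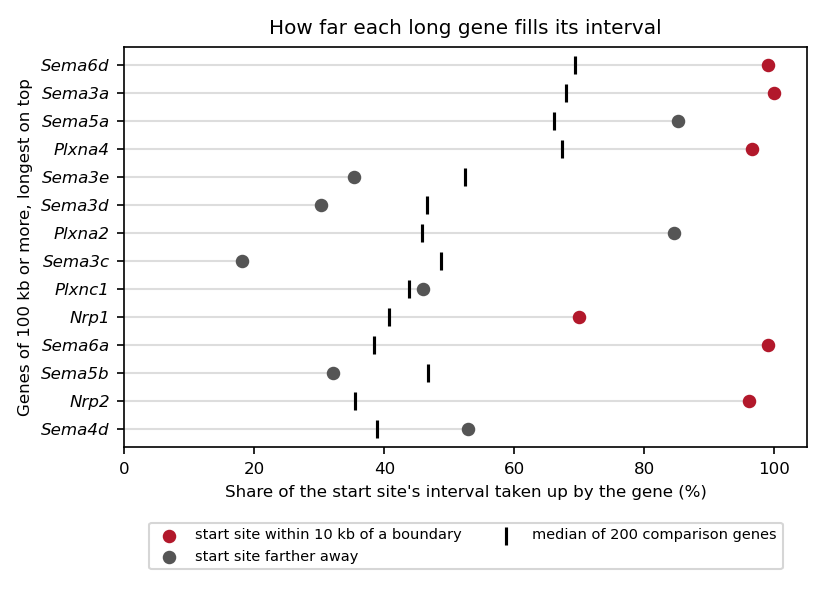
Share of the interval around the TSS that the gene body takes up (horizontal axis, %) for the 14 genes of 100 kb or more, longest on top; red points have a TSS within 10 kb of a boundary. Black ticks are comparison medians. Nrp1, at 69.9%, is the lowest of the 6 red points.

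The intervals differed in what else they held. No other protein-coding TSS lay in the interval of 10 genes (Nrp1, Nrp2, Plxna1, Plxna2, Plxna4, Sema3a, Sema3d, Sema5a, Sema6a and Sema6d), against 7.60 expected and 9.54% of all protein-coding genes. Plxnb2 shared its 540 kb interval with 27 others, Sema4f with 19, Sema3b and Sema3f with 16 each, and Plxna3 and Plxnb1 with 14 each. The interval of Plxnb3 on chromosome X included L1cam, the adhesion molecule that associates with Nrp1. The right-hand boundary of the Sema4b interval (1.31) was the bin in which Fes, a kinase downstream of plexin A, begins.

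**Figure D4:**
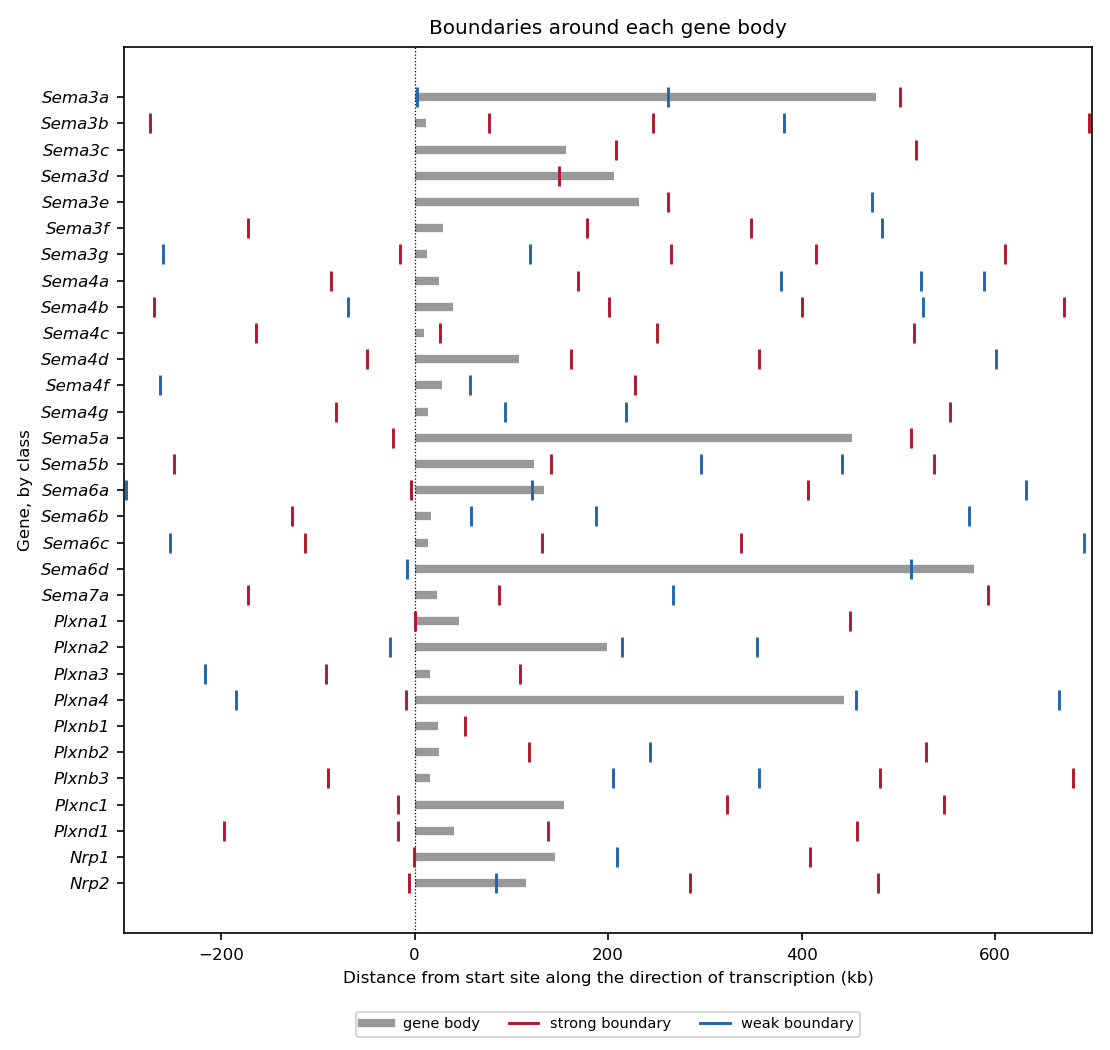
Gene bodies (grey bars) and boundary bins (red strong, blue weak) along the direction of transcription, with the TSS at 0 (horizontal axis, kb), 1 row per gene. In 4 rows (Nrp2, Plxna4, Sema6a and Sema6d) the nearest bin lies upstream within 10 kb, and 5 bars are crossed by a boundary away from their start.

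Known ligand and receptor pairs did not share 1 arrangement. Sema3a and its co-receptor Nrp1 both had the TSS in a boundary bin, a weak and a strong one. For Sema3a this holds for non-coding transcripts only, as the coding ones start 6.78 to 9.32 kb from another weak bin. Sema3f lay 170 kb away while its co-receptor Nrp2 was at 3.285 kb. Sema6a (1.13 kb) and its receptor Plxna4 (6.81 kb) were both at strong boundaries, and its other receptor Plxna2 was 23.2 kb from a weak one. Sema3e was 259.7 kb away and its receptor Plxnd1 15.0 kb. Sema7a was at 84.9 kb and Plxnc1 at 15.2 kb. Among the 11 receptor and co-receptor genes 4 were at a boundary (1.79 expected), and among the 20 semaphorins 3 were (3.09 expected). That difference was not tested.

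The CTCF consensus, a 12-base sequence bound by the protein that halts loop extrusion, was not found within 10 kb of any of the 7 boundaries at these start sites. A count of 0 of 7 allows a share of up to about 42.9%, taken as 3 divided by 7, an approximation and not an exact interval. Of all boundaries 24.4% had a match, so a shortage was not detectable. With a looser pattern, in which any base may stand at the variable positions of the consensus, 5 of the 7 had a match, against 76.1% of all boundaries. Over the boundaries nearest to each of the 31 genes 5 had the consensus (16.1%). Of the 5 internal boundaries 3 had it.

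Those consensus matches are shown, since they are the only ones within 10 kb of a boundary inside a gene body of the group or nearest to its start sites. Each line gives the genome strand of the match, and capitals mark the consensus.
Nrp2 internal boundary, chr1:62786432-62786461, plus strand: actttctcaCCACTAGGTGGCggcagcgac
Sema6d internal boundary, chr2:124605503-124605532, plus strand: tgtttttagCCAGTAGGTGGCtctagtggc
Sema3d internal boundary, chr5:12541473-12541502, minus strand: ccatattccCCAGCAGAGGGCatcatcaga
Sema3c nearest boundary, chr5:17784413-17784442, minus strand: gaccctttcCCACCAGGTGGCtgcttactc
Plxnd1 nearest boundary, chr6:116007991-116008020, minus strand: caagcctggCCAGCAGGGGGCctcctggct
Plxnb1 nearest boundary, chr9:109140601-109140630, plus strand: atcccctccCCACTAGGGGGCgtggagatg
Plxnb3 nearest boundary, chrX:73655702-73655731, minus strand: actgggctgCCAGCAGGGGGCaatggcagg
The match at Nrp2 lay in the bin, and that at Sema6d 0.512 kb from it. Both of these internal boundaries were close to the lowest strength in the list. The match at Sema3d lay 6.48 kb to the right of its strong bin, on the minus strand, and so pointed back towards it. Those at Sema6d, Plxnd1 and Plxnb3 pointed away from the boundary, the one at Plxnb1 pointed towards it, and those at Nrp2 and Sema3c were in the bin.

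Other genes listed by hand for semaphorin signalling did not stand at boundaries more often than their own comparison genes. The list held 40 genes, mainly co-receptors, adhesion partners and cytoplasmic effectors. It also held the growth factor gene Vegfa and the plexin domain genes Plxdc1 and Plxdc2, which are not plexins. Of these 5 were at a boundary by the same 10 kb window, with 5.95 expected. That is 12.5% (exact 95% interval from 4.19 to 26.8%), against 14.3% of all protein-coding genes. Fes (1.31), Farp2 (0.607), which encodes an exchange factor bound by class A plexins, and Cfl1 (0.585), which encodes the actin-severing protein cofilin, were at the strongest boundaries, and all 3 were strong. Fyn (0.320), a kinase in Sema3a signalling, and Plxdc2 (0.331) were at weak ones. The adhesion gene Chl1 (229 kb) and Farp1 (219.8 kb) lay farthest away. An internal boundary was present in 7 of the 40, with 6.04 expected and a background of 7.24% of all protein-coding genes.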

How the data were processed

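Per the labels' design text, the authors pooled the replicates' contact pairs in 1 matrix on GRCm38 and called boundaries on it. Not given in the sources used here are the caller, its version and its settings. In the deposited list each row has a 5 kb bin, a class and a boundary strength, a score that the authors computed and that was used as deposited. No library depth is known.

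Positions were set against GENCODE M21, with the TSS at the 5′ end of the gene model. The distance runs to the nearest edge of the bin. Comparison genes were the 200 genes outside the group nearest in standardized log length and log number of other TSSs within 100 kb. Expected counts are sums of their shares. No test was run, since there is 1 pooled list. Distance and overlap counts were checked on simulated bins with known answers. Values are named for all members at a boundary, with an internal boundary, or among the 3 farthest. Partner genes are named for the 3 strongest and the 2 farthest, and others named were chosen after their values were seen. The members, lists and alternatives were chosen with earlier results of these data known. The software was Python 3.11.15 (scipy 1.17.1, numpy 2.4.6, matplotlib 3.10.9, pandas 2.3.3).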

Additional observations from a re-analysis of the deposited data

How the results depend on the processing

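No paired analysis was possible because all samples form 1 group, and the list of pooled contacts allows no replicate to be omitted. Of 33 alternatives 8 were chosen after seeing the data, 26 left the value within its counting interval or within 1.5 times, 6 moved it and 1 turned it. Counting a gene as at a boundary when any annotated transcript start was within 10 kb gave a ratio to comparison genes of 0.951 in place of 1.43: the 7 members stayed 7 while the expected number rose from 4.88 to 7.36. Under the other 10 alternatives that ratio was 1.07 to 2.08. With strong boundaries alone, the median TSS distance was 84.9 kb in place of 54.8, the number of boundaries overlapping gene bodies 0.767 per Mb in place of 2.045, the median interval 425 kb in place of 265, and the median fill 9.37% in place of 15.0%. The share of nearest boundaries with a CTCF match was 83.9% with the looser pattern and 38.7% within 25 kb, in place of 16.1%, as both settings admit more matches. Isolation within 250 kb gave 6 of 9 isolated genes and 1 other gene at a boundary. What depth limits could not be assessed.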
